A study of Danio rerio with 8 samples.

Results

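Gene expression in zebrafish liver tumours induced by a Myc transgene was compared with that in the livers of untreated wild-type siblings. The comparison used 4 of the 8 libraries of the series: both libraries of transgenic fish on doxycycline, labelled M+D+ and called liver tumour by the submitters, and both libraries of wild-type siblings without doxycycline, labelled M-D-. Libraries were chosen by their sample titles, without use of any measured value. The M+ fish carry Tg(fabp10:TA; TRE:Myc; krt4:GFP), in which the fabp10 promoter, active in hepatocytes, drives a transactivator, a responsive promoter drives Myc, and a krt4 promoter drives a green fluorescent marker. The M+D+ fish therefore differed from the M-D- fish in both the transgene and doxycycline, and their effects cannot be told apart within this comparison. Values of untreated transgenic fish (M+D-) and of wild-type fish on doxycycline (M-D+), with 2 libraries each, are set beside the results where they bear on them. Treatment began at 21 days after fertilization in tanks of 6 L holding about 25 fish. Whether replicate libraries stand for individual fish, pooled fish or repeats of 1 RNA sample is not in the labels. The p-values here measure the spread among these libraries, part or all of which may be technical.

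Myc is a transcription factor that pairs with Max, and it is known for raising the transcription of ribosomal and translation genes and of genes of nucleotide and energy metabolism, and for driving cells into division. The liver is built mainly of hepatocytes, which secrete most plasma proteins, take up and export lipids, break down amino acids, make glucose and bile acids and detoxify foreign compounds. Genes of these hepatocyte functions depend on a small set of liver-enriched transcription factors.

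Transcripts were counted by 3' RNA-SAGE, in which a short tag near the 3' end stands for a transcript. The deposited values are given as CPM, the tags of a transcript row scaled to the sum of its library. A library held 4402176 and 4611809 tags in M-D-, and 6399932 and 2864061 tags in M+D+, as recovered from the steps between values, and the other 4 libraries held 1682372 to 5020852. Where a row is at 0, its level may still reach the worth of 3 tags, which ranged from 0.469 to 1.78 CPM over the 8 libraries (counting error only). Of 13944 rows listed in the 4 libraries, 3642 reached 5 CPM in at least 2 of them and were tested, and 3011 of these had a gene symbol. Across the tested rows, log2(CPM + 1) of the 2 replicates had a Pearson r of 0.962 in M-D- and 0.928 in M+D+, as a description over rows that are not independent. In bulk tissue, fewer cells of a type and less RNA per cell cannot be told apart.

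More transcripts were lower than higher in the tumours on the deposited scale, and this balance turned after rescaling. Limma, fitted to log2(CPM + 1) over all 8 libraries with a mean for each group, called 291 rows at an adjusted p below 0.05 (7.99% of those tested): 68 were higher in M+D+ (1.87%) and 223 were lower (6.12%). After trimmed mean of M-values (TMM) scaling, which sets the bulk of the rows of each library level, it called 158 rows higher (4.34%) and 133 lower (3.65%). The TMM factors were 0.722 and 0.823 in M+D+ against 0.896 and 0.992 in M-D-. The median log2 change of all tested rows was -0.32 on the deposited scale and -0.06 after TMM scaling, so changes are best read against those medians. In total 201 rows (5.52%) passed in the same direction on both scales, 68 higher and 133 lower, and no row passed in opposite directions. The quasi-likelihood test of edgeR, run on recovered tags with TMM factors, called 230 rows (6.32%), 133 higher (3.65%) and 97 lower (2.66%), including 67 of those 68 rises and 97 of those 133 falls. "Rose" and "fell" below mean called on the deposited scale by limma, and log2 changes are on the log2(CPM + 1) scale of the deposited values with their standard error, unless TMM is named. Such changes understate those of rows with low values.

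**Figure D1:**
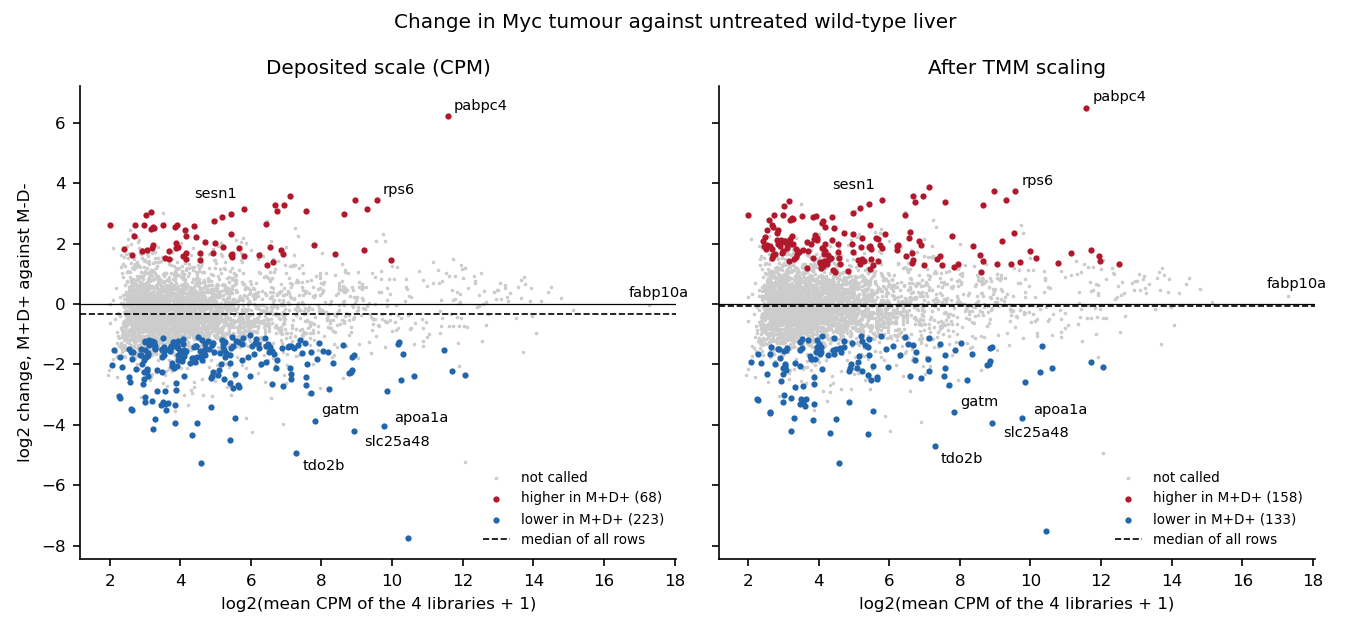
Log2 change of each tested row in M+D+ against M-D- (y axis) by its mean level over the 4 libraries (x axis, log2 of CPM + 1), on the deposited scale (left) and after TMM scaling (right), with called rows in colour. The dashed line, the median of all rows, lies at -0.32 on the left and -0.06 on the right, and the calls change from 68 higher and 223 lower to 158 higher and 133 lower.

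The calls rest on few libraries. Without M-D- library 1 limma called 0 rows on the deposited scale (692 at an unadjusted p below 0.05), and without M-D- library 2 also 0 (762 unadjusted), so on that scale none of the calls named below passes with 1 wild-type library alone, whose spread is then taken from the other groups. After TMM scaling the counts were 0 and 7. With library 1 or 2 of another group omitted in its place, the count was 10 or 132 for M+D+, 56 or 50 for M+D-, and 516 or 504 for M-D+. On the deposited scale the M-D+ and M+D- libraries enter only through the estimate of the spread, and with TMM also through the factors. On all libraries edgeR without scaling factors called 271 rows (7.44%), 69 higher (1.89%) and 202 lower (5.55%), and DESeq2 called 478. All called rows had both tumour libraries on 1 side of both M-D- libraries, a separation that 2275 of the tested rows showed (62.5%), 680 upwards (18.7%) and 1595 downwards (43.8%).

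**Figure D2:**
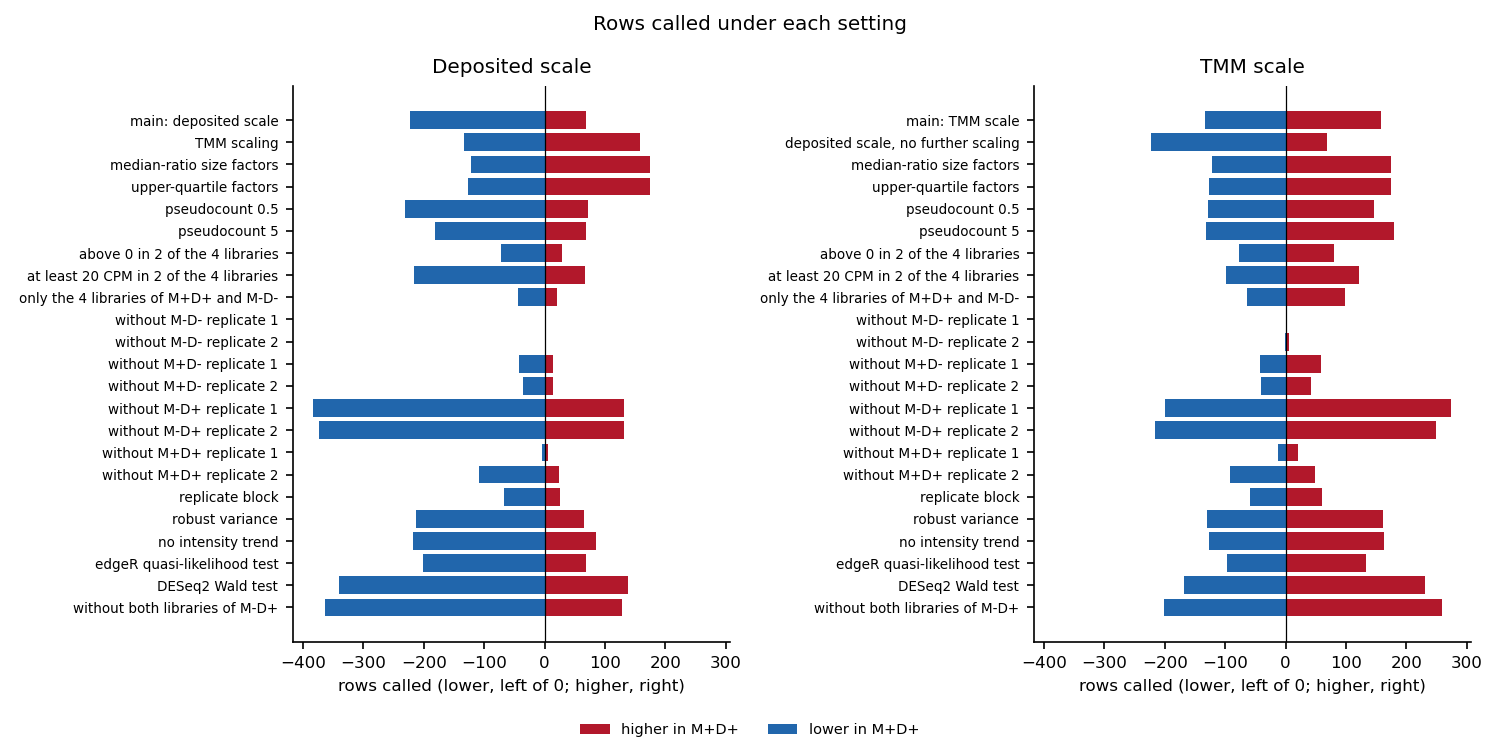
Rows called by each analysis setting (bars to the right of 0, higher in M+D+; to the left, lower), with the deposited scale in the left panel and the TMM scale in the right. The bars shrink to 0 rows on the deposited scale without either M-D- library and grow to 516 and 504 without an M-D+ library.

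The tissue label was checked first. All 13 hepatocyte marker rows were detected in every tumour library, and together they took 20.6 and 15.7% of the tags in the M+D+ libraries against 21.1 and 21% in M-D-. Most of this is fabp10a, a fatty acid-binding protein of hepatocytes, at 187914 and 129776 CPM in M+D+ against 157241 and 162367 in M-D-. The tumour libraries lay on either side of both wild-type libraries, and the log2 change of -0.03 ± 0.48 did not pass (limma adjusted p = 0.97), with the sign turning after TMM scaling (0.26). The transactivator of the transgene is driven by the promoter of this gene. Of the 13 hepatocyte rows, 2 fell, apoa1a and ahsg2 (15.4%, against 6.12% of all rows), and none rose. In 8 of the 13 both tumour libraries lay below both wild-type libraries (43.8% of all rows did).

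No endogenous Myc gene was called. The level of mycb was 2.19 and 24.4 CPM in M+D+ against 70.7 and 73.7 in M-D-, below both wild-type libraries in both tumour libraries, with 27.5 and 20.6 in M+D- beside 115 and 22.4 in M-D+. The M+D- values of mych, 1 and 3.09, lay inside the range of its tumour values, and M-D+ held 25.6 and 7.48. In M+D+ mych was at 0.63 and 6.28 against 40.9 and 17.6 in M-D-. Neither difference passed, at log2 changes of -3.02 ± 1.0 and -3.02 ± 0.85 (limma adjusted p = 0.0943 and 0.0643), though mycb passed without M+D+ library 2 (0.0447). The row of myca held 0.16 CPM in M+D+ library 1 and 0 in the other 7 libraries, and max stood at 41.2 and 34.2 in M+D+ against 39.3 and 36.9 in M-D-. Which Myc coding sequence the transgene carries is not stated in the labels, so these rows do not check the transgene. The level of krt4, whose promoter drives the fluorescent marker, was 2.03 and 8.03 CPM in M+D+ against 2.73 and 4.77 in M-D-, under the filter.

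Markers of other cell types were read beside these. Of 26 rows of exocrine pancreas markers 17 were tested. In 15 both tumour libraries lay below both wild-type libraries (43.8% of all rows did). On the deposited scale 3 fell, cpb1, ela2l and cel.1 (17.6%, against 6.12% of all rows), and none rose. With any 1 library of M+D+, M-D- or M+D- left out, none of the 17 was called. The summed level of all 26 was 767.5 and 1185 CPM in M+D+ against 4345 and 2191 in M-D-. The row of cel.2 was at 0 in both tumour and both M-D- libraries. Digestive enzymes of the pancreas such as prss1, at 251 and 373 CPM in M+D+ against 1460.2 and 618 in M-D-, were found in all these liver libraries, and their part in the falls described below was not tested. Erythrocyte markers summed to 206 and 275.5 CPM in M+D+ against 467 and 421.5 in M-D-. Of 6 tested rows alas2, an enzyme of heme synthesis, rose (16.7%, against 1.87% of all rows) and hemgn fell (16.7%, against 6.12%). Leukocyte markers summed to 2224 and 1478 CPM in M+D+ against 2353 and 3008 in M-D-, which is mostly apoeb. Of 12 tested leukocyte rows, 8 lay above both wild-type libraries (18.7% of all rows did) and 1, c1qa, passed after TMM scaling only. Among 7 tested stellate and matrix rows, rgs5a fell, on the deposited scale only (14.3%, against 6.12% of all rows). Of the 28 rows listed, 9 were at 0 in both tumour libraries and 7 in both M-D- libraries. No endothelial or testis marker reached the filter, and the 3 tested egg coat and ovary rows included none that was called. Biliary, islet, intestine, muscle, and adipose and skin markers had no call. The part of these cell types in the results was not tested.

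The largest rise among rows with a symbol was in pabpc4, which encodes a cytoplasmic protein that binds the poly(A) tails of mRNAs. Its row (GI 41152033) held 6818 and 5239 CPM in M+D+ against 82.2 and 75.7 in M-D-. The tumour libraries stood far above both wild-type libraries, a log2 change of 6.22 ± 0.47 or 74.8-fold, with an adjusted p of 0.00485 by limma. Untreated transgenic livers lay between, at 1426 and 515 CPM, and wild-type livers on doxycycline were near the wild type, at 143 and 117. The limma adjusted p was 0.0335 and 0.0135 when M+D+ library 1 and 2 were left out in turn, and 0.0875 and 0.0651 for M-D-.

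Ribosomal protein genes of the cytosol held a larger share of the tags in the tumours. The 76 rows found for them, of which 73 were tested, took 45.9 and 46.9% of all tags in the tumour libraries, against 37.7 and 31.9% in M-D-, 26.8 and 32.2% in untreated transgenic (M+D-) and 33.7 and 20.5% in treated wild-type (M-D+) fish. Both tumour libraries were above all the others, though 2 libraries against 2 cannot give an exact permutation p under 0.333. Of the 73 rows, 6 rose (8.22%, against 1.87% of all rows) and none fell, and after TMM scaling 15 rose (20.5%, against 4.34%). The median log2 change was 0.69 on the deposited scale and 0.98 after TMM scaling, against -0.32 and -0.06 for all rows. In 57 of them both tumour libraries lay above both wild-type libraries and in 4 below (18.7% and 43.8% of all rows). With 1 library left out, rises numbered 0 and 0 for M-D-, 4 and 4 for M+D-, 21 and 20 for M-D+ and 3 and 4 for M+D+, library 1 and 2 in each case, with no fall.

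Within this group 4 rows stood apart from the rest. The small-subunit gene rps6, a target of the TOR pathway's S6 kinase, was at 982 and 1809 CPM in M+D+ against 145 and 101 in M-D-, which gave a log2 change of 3.45 ± 0.44 (limma adjusted p = 0.0154). The large-subunit genes rpl12 (526 and 1306 CPM against 93.1 and 59.4), rpl4 (792 and 1473 against 153 and 95) and rpl22 (194 and 251 against 21.4 and 21.9) changed by 3.46, 3.15 and 3.29. In all 4 both tumour libraries were above all 6 control libraries, and M+D+ library 2 was the higher tumour library. Below them came rps3a at 2.26 ± 1.39, which did not pass and whose M-D+ libraries held 382 and 12 CPM, and rpl9 and rps9 at 2.09 ± 0.55 and 2.08 ± 0.52, called after TMM scaling only. The other 2 rows called on both scales were rpl36 (1.79 ± 0.38) and rps3 (1.46 ± 0.32).

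The 4 rows that lay below both wild-type libraries were rplp0, rplp2, rpl31 and rpl37. The stalk protein gene rplp0 was at 34430.2 and 32451 CPM in M+D+ against 41479.5 and 35917 in M-D-, above all 4 libraries of M+D- and M-D+, and its log2 change of -0.21 ± 0.36 did not pass and turned to 0.08 after TMM scaling. Its partner rplp2 was at 3497 and 2785 against 6227 and 4364 CPM and was not called. The small-subunit gene rps16 was at 4351 and 5653 CPM in M+D+ against 1591 and 1951 in M-D-, called after TMM scaling only (limma adjusted p = 0.0316). Members of this family can share tags with near-identical copies, and the sources used here do not give the rule by which such tags were assigned.

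**Figure D3:**
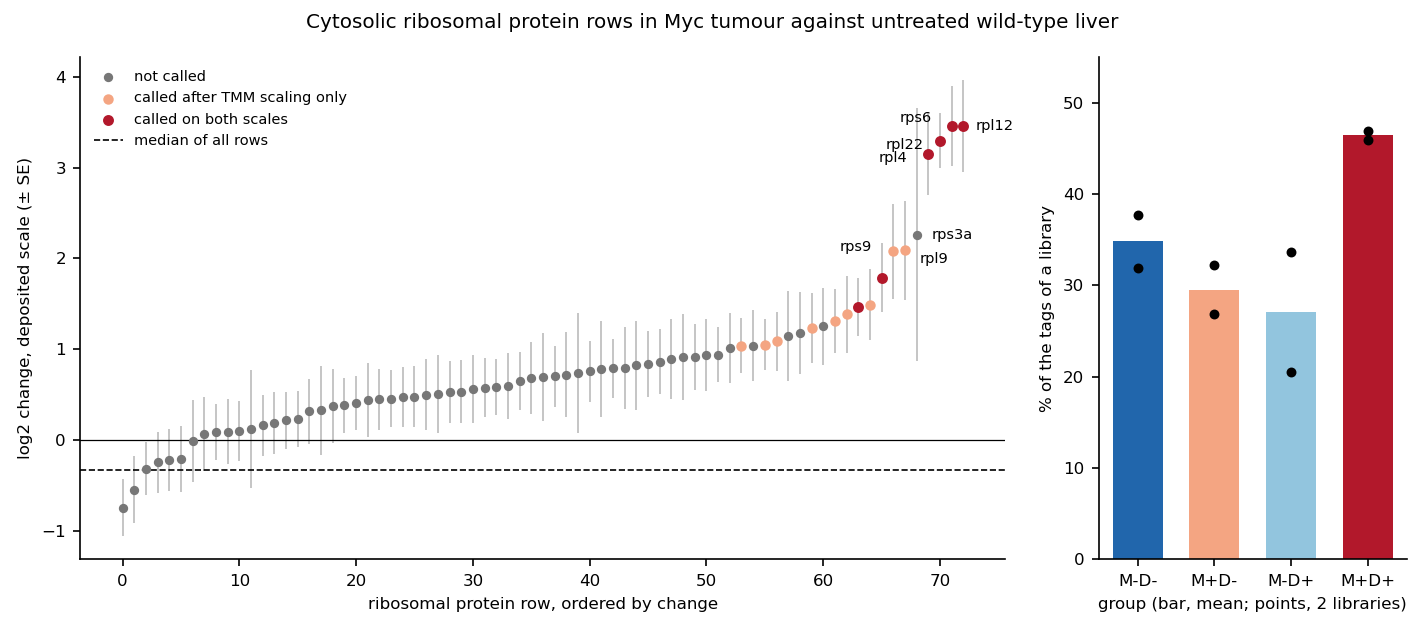
Left, log2 change with standard error of each of the 73 cytosolic ribosomal protein rows on the deposited scale (y axis), in ascending order (x axis), with the median of all rows dashed; right, the share of each library's tags in all 76 rows found, tested or not (percent), with bars for group means and points for the 2 libraries. Most rows lie above the dashed line, rpl12, rps6, rpl22 and rpl4 stand apart at the right end, and the tumour libraries, at 45.9 and 46.9%, lie above the other 6.

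Translation factors moved in both directions. Of 52 rows 4 rose (7.69%, against 1.87% of all rows) and 3 fell (5.77%, near the 6.12% of all rows). After TMM scaling 6 rose (11.5%, against 4.34% of all rows) and 1 fell (1.92%, against 3.65%). Beside pabpc4, tpt1 rose, a translationally controlled protein that binds elongation factors, from 36.1 and 35.3 CPM in M-D- to 200.2 and 488 in M+D+ (log2 change 3.09 ± 0.48, limma adjusted p = 0.0184). The other rises were in eif4ebp3l, a repressor of the cap-binding protein eIF4E, and in eif3ea, a subunit of initiation factor 3, at 155 and 131 CPM against 45.2 and 62.7. Those that fell were the helicase genes eif4a2 (1.88 and 2.09 CPM in M+D+ against 14.1 and 8.02 in M-D-) and eif4a1a (10.2 and 10.5 against 28.6 and 30.1) and the cap-binding eif4e2 (4.22 and 3.14 against 10 and 10.4). Of these, eif4a2 alone also passed after TMM scaling. In the M+D- libraries eif4a1a stood at 12.2 and 11.5 CPM, close to the tumours, and in M-D+ at 129.6 and 75.7. Rises numbered 0 and 0 without M-D- library 1 and 2, 3 and 3 without M+D-, 6 and 5 without M-D+ and 2 and 3 without M+D+, and falls 0 and 0, 0 and 0, 3 and 3 and 0 and 0.

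Calls among genes that assemble ribosomes were falls on the deposited scale. Of 33 ribosome biogenesis rows none rose on the deposited scale and 3 fell (9.09%, against 6.12% of all rows), with 19 below both wild-type libraries, as 43.8% of all rows were, and a median log2 change of -0.71. Nucleolin (ncl), an abundant nucleolar protein, was at 135 and 130.2 CPM in M+D+ against 482 and 543 in M-D-, below all 6 controls (log2 change -1.94 ± 0.34, limma adjusted p = 0.0229). The large-subunit maturation gene rrp15 (4.06 and 5.59 CPM against 23.2 and 23.2) and bysl, needed for the small subunit (62.7 and 84.8 against 191 and 194), fell as well, bysl not after TMM scaling (limma adjusted p = 0.0507). The endonuclease-like rcl1 rose after TMM scaling only, at 264 and 338 CPM against 139 and 174. These falls numbered 0 and 0 without M-D- library 1 and 2, 1 and 1 without M+D-, 7 and 7 without M-D+ and 0 and 1 without M+D+. Of 14 rows of tRNA synthetases and their partners 1 rose (7.14%, against 1.87% of all rows) and 1 fell (7.14%, against 6.12%). The rise was aimp2, a scaffold of the multi-synthetase complex (31.1 and 51.7 CPM against 7.72 and 9.97, log2 change 2.07 ± 0.32). The cysteinyl synthetase cars1 fell on the deposited scale (7.81 and 8.03 against 23.2 and 25.8).

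The 15 largest rises and 15 largest falls, all but 1 of them plotted by library, were taken from rows called on both scales that had a symbol and averaged 20 CPM or more in the 4 libraries. There were 33 rises and 59 falls to draw them from. Limma adjusted p-values on the deposited scale ran from 0.00485 to 0.0409. In 29 of the 30 both tumour libraries lay beyond all 6 controls, tdo2b being the exception, whereas 4.86% of all tested rows lay above all 6 and 28.6% below. The 30 were picked by size of change from rows called on both scales in these same data. Of all rows called on both scales, 51 of the 68 rises and 122 of the 133 falls lay beyond all 6 controls. The choice of the 30 largely fixed their sign in advance and favoured such separation. Neither a kept sign nor this separation is therefore further support. The sign of all 30 was kept in every setting tried, but the calls were not: on the deposited scale, with 1 library left out, 0 and 0 passed for M-D-, 22 and 20 for M+D-, 30 and 30 for M-D+, and 6 and 24 for M+D+. After TMM scaling these counts were 0 and 3 for M-D-, 23 and 23 for M+D-, 30 and 30 for M-D+, and 13 and 25 for M+D+. The 6 that passed on the deposited scale without M+D+ library 1 were pabpc4, rps6, rpl12, rpl22, tpt1 and ndrg2. EdgeR with TMM factors passed 27, all but p4ha3, hsd11b2 and tdo2b (adjusted p = 0.0726, 0.0516 and 0.0634).

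**Figure D4:**
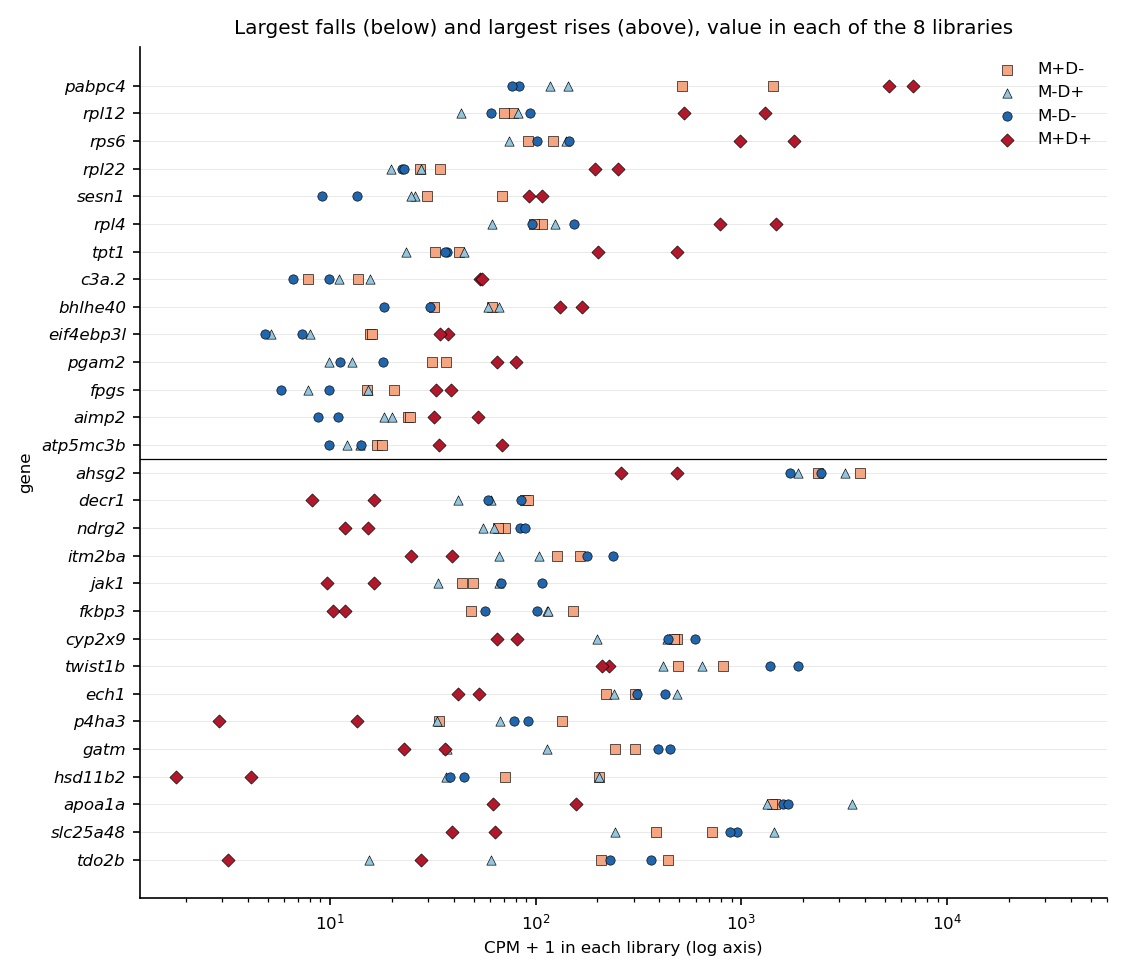
Level of 14 of the 15 largest rises (above the line) and of the 15 largest falls (below it) in each of the 8 libraries (x axis, CPM + 1 on a log axis), with marker shape and colour for the group. The 2 tumour libraries (diamonds) lie outside the 2 untreated wild-type libraries (circles) in every row, and the gap is widest for pabpc4, at 6818 and 5239 against 82.2 and 75.7 CPM.

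Regulators of TOR and stress genes were among the rises. The sestrin gene sesn1, a p53 target that restrains TOR complex 1, was at 91.9 and 107 CPM in M+D+ against 8.18 and 12.6 in M-D-, which gave a log2 change of 3.16 ± 0.43 (limma adjusted p = 0.0154). Its M+D- values, 67.9 and 28.5, and M-D+ values, 25 and 23.8, lay between. The 4E-binding protein gene eif4ebp3l was at 36.7 and 33.2 CPM against 3.86 and 6.29 (log2 change 2.59 ± 0.34), with 14.7 and 15 in M+D-. These were the 2 rises among 16 rows of TOR regulators (12.5%, against 1.87% of all rows), which had no fall and a median log2 change of 0.03. Among 19 rows of apoptosis and p53 targets, sesn1 rose (5.26%, against 1.87% of all rows) and gadd45ba, a stress-induced gene, fell (5.26%, against 6.12%). After TMM scaling 3 of the 19 rose (15.8%, against 4.34% of all rows) and 1 fell (5.26%, against 3.65%). The level of gadd45ba was 30.5 and 47.5 CPM in M+D+ against 154 and 186 in M-D-. Its M+D- values, 73.3 and 44.6, overlapped the tumours. Of 11 clock rows 1 rose (9.09%, against 1.87% of all rows), bhlhe40, a repressor of clock transcription. Its level went from 17.3 and 29.7 CPM in M-D- to 167 and 130.2 in M+D+ (2.65 ± 0.41, limma adjusted p = 0.0184). Leaving out M+D+ library 1 gave limma adjusted p-values of 0.0615 for sesn1, 0.0652 for eif4ebp3l and 0.0818 for bhlhe40, and without M-D- library 1 it was 0.118 for each of the 3. With 1 library omitted, the fall of gadd45ba passed for M-D+ alone. Its limma adjusted p was 0.129 and 0.0576 with M+D+ library 1 and 2 omitted in turn and 0.0646 and 0.0647 for M+D-.

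Among 23 histone and chromatin rows 3 rose (13%, against 1.87% of all rows) and 1 fell (4.35%, against 6.12%). The linker histone gene h1-10 was at 166 and 127 CPM in M+D+ against 45.4 and 32.3 in M-D-, above all 6 controls (1.89 ± 0.33, limma adjusted p = 0.0229). The histone variant h2ax1 rose to 9.38 and 12.2 from 2.5 and 2.39, although M-D+ held 32.7 and 17, and the heterochromatin protein cbx1a fell on the deposited scale. The list had no call without M+D+ library 1 or either M-D- library, 1 rise without either M+D- library, and 2 rises without M+D+ library 2, where h1-10 had a limma adjusted p of 0.0463. Without M+D- library 1 and 2 in turn this was 0.0601 and 0.0594 for h1-10, and 0.0819 and 0.0827 for h2ax1.

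Of 45 rows found for S phase and DNA replication 5 reached the filter, and 1 of these fell (20%, against 6.12% of all rows). Of 45 for G2 and mitosis 6 reached it, and 2 of these fell (33.3%, against 6.12%). After TMM scaling 1 of the 6 rose (16.7%, against 4.34% of all rows) and none fell. The replication licensing inhibitor gmnn fell, at 3.13 and 2.09 CPM in M+D+ against 11.6 and 19.5 in M-D- (-2.17 ± 0.36, limma adjusted p = 0.0218). On the deposited scale the spindle midzone gene prc1a (188 and 106 CPM against 349 and 524) and the tubulin gene tuba8l4 (64.5 and 94.6 against 179 and 256) fell too, and neither passed after TMM scaling (limma adjusted p = 0.0839 and 0.0509). A ribonucleotide reductase row, rrm2l, was the 1 call among 15 nucleotide synthesis rows (6.67%, near the 6.12% of all rows that fell). It fell to 0.47 and 1.4 CPM from 5.91 and 19.1. Its M+D+ values are 3 and 4 tags. Of 4 polyamine rows 1 rose (25%, against 1.87% of all rows) and 1 fell (25%, against 6.12%). The acetyltransferase sat1a.2 rose (80.8 and 146 against 29.8 and 39, with 147 and 148 in M-D+). The antizyme oaz1a fell on the deposited scale (74.1 and 67.7 against 216 and 171). The folate-retaining enzyme gene fpgs, in none of the lists, rose from 4.77 and 8.89 CPM to 31.9 and 37.7 (2.24 ± 0.43). With any 1 library of M+D+, M-D- or M+D- left out, none of the calls on gmnn, prc1a, tuba8l4, rrm2l, sat1a.2, oaz1a and fpgs passed.

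The following falls lay outside the lists. The kinase gene jak1, which relays cytokine signals, was at 15.5 and 8.73 CPM in M+D+ against 67.2 and 107 in M-D- (-2.76 ± 0.44, limma adjusted p = 0.0184). The gene ndrg2, of the N-myc downstream-regulated family, fell to 10.8 and 14.3 from 83.4 and 88 CPM (-2.69 ± 0.27, limma adjusted p = 0.00898). The row of twist1b, a basic helix-loop-helix transcription factor, fell to 225.5 and 210.2 from 1885 and 1377 (-2.88 ± 0.37), with M+D- at 493 and 811 and M-D+ at 643 and 417.5. The membrane protein gene itm2ba fell to 23.8 and 38.1 from 237 and 176. In these 4 genes both tumour libraries were below all 6 controls. Of these 4, only ndrg2 passed without M+D+ library 1 (limma adjusted p = 0.0436), without M+D+ library 2 all but jak1 did, without M+D- library 2 jak1 did not (0.0514), and without either M-D- library none did.

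Energy metabolism shifted unevenly. Of 14 glycolysis rows 2 rose (14.3%, against 1.87% of all rows) and none fell. The phosphoglycerate mutase gene pgam2 was at 63.9 and 78.9 CPM in M+D+ against 10.2 and 17.1 in M-D- (2.34 ± 0.33, limma adjusted p = 0.0162), with 35.6 and 30.5 in M+D-. Lactate dehydrogenase ldhba was at 11.6 and 18.9 against 1.59 and 1.73 (2.57 ± 0.42), above all 6 controls, which held at most 2.19 CPM. After TMM scaling 4 rose (28.6%, against 4.34% of all rows), with the enolase eno1a and the aldolase aldoaa, and the median of the list was -0.01 on the deposited scale. In 6 of the 14 rows both tumour libraries lay above both wild-type libraries and in 2 below (18.7% and 43.8% of all rows). In gluconeogenesis and glycogen metabolism 1 of 15 rows fell (6.67%, near the 6.12% of all rows). This was g6pc1a.2, the glucose-6-phosphatase that releases glucose from the liver, at 163 and 150.1 CPM against 762 and 749.6 (-2.26 ± 0.38, limma adjusted p = 0.0218). Of 18 rows that the name pattern for the citric acid cycle caught, 1 fell (5.56%, against 6.12% of all rows). It was mdh1aa, the cytosolic and not the mitochondrial malate dehydrogenase, from 5794 and 5151 CPM to 1252 and 1119 (-2.21 ± 0.33). None of these 4 genes passed without M+D+ library 1, without M+D+ library 2 pgam2 alone did (limma adjusted p = 0.0463), and without either M-D- library none did. Leaving out M+D- library 1 or 2 kept the calls on pgam2 and mdh1aa and ended those on ldhba and g6pc1a.2.

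Few nuclear-encoded genes of the respiratory chain and ATP synthase were called. Of 65 such rows 5 rose (7.69%, against 1.87% of all rows) and 1 fell (1.54%, against 6.12%). After TMM scaling 7 rose and none fell. Both tumour libraries lay above both wild-type libraries in 24 rows and below them in 16 (18.7% and 43.8% of all rows). The cytochrome c oxidase subunit genes cox6a1 (520 and 492 CPM in M+D+ against 175 and 148 in M-D-), cox6a2 (88.9 and 76.1 against 30.2 and 23.6) and cox7b (22.5 and 34.9 against 4.54 and 4.12) rose, each above all 6 controls. So did atp5if1a, an inhibitor of ATP synthase (75.6 and 54.8 against 15 and 26.2). Paralogous genes for subunit c of ATP synthase went opposite ways: atp5mc3b rose to 33 and 67.4 from 13.2 and 8.89 CPM (2.02 ± 0.39, limma adjusted p = 0.0278), and atp5mc3a fell to 114 and 173 from 313 and 372 (-1.27 ± 0.30, limma adjusted p = 0.0434), the latter not after TMM scaling (0.0649). Transcripts of such paralogs may share tags. The rises numbered 0 and 0 without M-D- library 1 and 2, 0 and 0 without M+D-, 5 and 5 without M-D+ and 0 and 1 without M+D+, and the falls 0 and 0, 0 and 0, 2 and 1 and 0 and 3.

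All calls among mitochondrial ribosomal proteins were falls. Of 32 rows 6 fell on both scales (18.8%, against 6.12% of all rows on the deposited scale and 3.65% after TMM scaling), none rose, and 20 lay below both wild-type libraries (43.8% of all rows did). The largest fall was that of mrpl24, at 1.88 and 3.49 CPM in M+D+ against 25.9 and 23.4 in M-D- (-2.83 ± 0.38, limma adjusted p = 0.0154), followed by mrpl43 (1.25 and 2.79 against 13.9 and 11.3) and mrpl48 (4.69 and 7.68 against 26.4 and 20.8). The other falls were mrpl46, mrpl53 and mrpl19. The tumour values are low, so counting error is larger here than for cytosolic ribosomal proteins. Falls numbered 0 and 0 without M-D- library 1 and 2, 1 and 1 without M+D-, 6 and 6 without M-D+ and 0 and 2 without M+D+.

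Genes of fatty acid oxidation and peroxisomes were called lower more often than the whole table, a difference that was not tested. Of 28 rows 6 fell (21.4%, against 6.12% of all rows), none rose and 16 lay below both wild-type libraries (43.8% of all rows did). After TMM scaling 4 fell (14.3%, against 3.65%). The dienoyl-CoA reductase decr1 was at 7.19 and 15.4 CPM in M+D+ against 84.3 and 57.9 in M-D- (-2.61 ± 0.40, limma adjusted p = 0.0184). The carnitine carrier slc25a20 (107 and 98.8 against 401 and 327) and the very-long-chain dehydrogenase acadvl (5.16 and 7.68 against 23.4 and 26.2) fell on both scales, and pex26 and eci2 on the deposited scale. The isomerase ech1, of the same pathway but matched by no list, was at 40.8 and 52 CPM against 425 and 311 (-2.95 ± 0.40). Falls in the list numbered 0 and 0 without M-D- library 1 and 2, 1 and 0 without M+D-, 7 and 6 without M-D+ and 0 and 2 without M+D+. Of 16 lipid and cholesterol synthesis rows only the sterol reductase tm7sf2 was called, as a rise (6.25%, against 1.87% of all rows). It was at 13.3 and 33.2 CPM against 3.63 and 5.42, with 17.9 and 20.8 in M+D-, which overlapped the tumours.

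Secreted proteins of hepatocytes were lower in single members. The high-density lipoprotein gene apoa1a was at 60.8 and 156 CPM in M+D+ against 1589.7 and 1679 in M-D-, with 1453 and 1407 in M+D- beside 1339 and 3462 in M-D+. Both tumour libraries were below all 6 controls, a log2 change of -4.05 ± 0.55 with an adjusted p of 0.0154 by limma. This gene was the 1 call among 19 rows of apolipoproteins and lipid carriers (5.26%, against 6.12% of all rows that fell). The list had a median of -0.69. Of 28 other plasma protein rows 3 fell (10.7%, against 6.12% of all rows) and 16 lay below both wild-type libraries (43.8% of all rows did). The fetuin gene ahsg2 fell to 258 and 486 from 1719.6 and 2437 CPM (-2.53 ± 0.45, limma adjusted p = 0.0233), vitronectin (vtna) to 24.5 and 38.1 from 106 and 142, and the vitamin D carrier gc, on the deposited scale only, to 1166 and 1815 from 3890.1 and 4467. For gc the M-D+ libraries held 1535 and 2348, 1 of them inside the range of the tumours. The inter-alpha-trypsin inhibitor gene itih3b.2 rose after TMM scaling only, from 16.4 and 20.6 CPM to 39.2 and 155. Neither list had a call with M+D+ library 1 or either library of M-D- omitted, and with M+D+ library 2 omitted the falls numbered 2 and 3 in the same order. With M+D- library 1 or 2 left out, apoa1a was the 1 call in both lists.

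Complement genes went both ways. The complement component c3a.2 rose to 52.5 and 53.8 CPM from 8.86 and 5.64 (2.74 ± 0.38, limma adjusted p = 0.0156), above all 6 controls, and c3b.1 (8.13 and 8.73 against 2.27 and 3.25) and c1qa (7.97 and 12.9 against 1.59 and 1.73) rose after TMM scaling only. The lectin hbl4 fell to 5 and 12.2 from 45.7 and 50.1 (-2.46 ± 0.41). The other fall counted among the 24 complement and coagulation rows is f11r.2, at 0 and 3.49 CPM against 17.3 and 22.8. It is a junctional adhesion molecule that the list's name pattern caught. In this list 1 row rose (4.17%, against 1.87% of all rows) and 2 fell (8.33%, against 6.12%). The 22 acute phase rows found took 0.518 and 0.767% of tags in M+D+ against 1.05 and 0.989% in M-D-. Of the 12 tested 1, c3a.2, rose (8.33%, against 1.87% of all rows). No row was found for the list of mitochondrially encoded genes. Of 12 interferon and antigen presentation rows limma called none on the deposited scale, where ifi27.1, at 3.91 and 6.28 CPM against 74.3 and 31.9, had an adjusted p of 0.0527. After TMM scaling 1 passed, irf2bp2b, higher at 18.3 and 23.7 against 9.09 and 12.6. The call on c3a.2 was lost without M+D+ library 1 (limma adjusted p = 0.0652) and without M-D- library 1 and 2 (0.118 and 0.0923). Those on hbl4 and f11r.2 were lost in the same 3 settings, with 0.0683 and 0.0721 when M+D+ library 1 was omitted, and also with M+D- library 1 (0.0513 and 0.0624) or 2 (0.0517 and 0.0625) omitted. EdgeR with TMM factors did not call f11r.2 (adjusted p = 0.075).

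Enzymes of detoxification and amino acid breakdown included several of the largest falls. The tryptophan dioxygenase gene tdo2b was at 2.19 and 26.9 CPM in M+D+ against 362 and 229 in M-D-, which gave a log2 change of -4.94 ± 1.03 (limma adjusted p = 0.0355). It was at 60 and 14.5 in M-D+, which overlapped the tumours, and at 438 and 207 in M+D-. The amidinotransferase gatm, the first step of creatine synthesis, was at 35.5 and 22 CPM in M+D+ against 393 and 450.1 in M-D- (-3.86 ± 0.52, limma adjusted p = 0.0154), and M-D+ was also low, at 112 and 36. Among 43 urea cycle and amino acid breakdown rows 4 fell (9.3%, against 6.12% of all rows) and none rose. After TMM scaling 2 fell (4.65%, against 3.65%) and 4 rose (9.3%, against 4.34%). The falls on the deposited scale only were amdhd1 (31.1 and 35.3 CPM against 67.5 and 80.9) and bckdhbl. The 4 rises after TMM scaling were the cysteine enzymes cth and cdo1, the argininosuccinate synthase ass1 (27.8 and 12.9 CPM against 4.77 and 5.42) and the arginase arg2 (31.6 and 15.4 against 7.5 and 3.9). The median of the list was 0.19 on the deposited scale, above that of all rows. The limma adjusted p-values of tdo2b and gatm became 0.107 and 0.0615 when M+D+ library 1 was omitted. Omitting M-D- library 1 gave 0.172 and 0.118, and omitting M+D- library 1 gave 0.0646 and 0.0416.

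Among 55 tested rows of bile acid and xenobiotic metabolism 33 lay below both wild-type libraries (43.8% of all rows did) and the median log2 change was -1.01 (-0.73 after TMM scaling). Of these 5 fell (9.09%, against 6.12% of all rows) and none rose, and after TMM scaling 2 fell and 2 rose. The cytochrome P450 gene cyp2x9 was at 64.1 and 80.7 CPM in M+D+ against 594 and 441 in M-D- (-2.81 ± 0.40, limma adjusted p = 0.0168). Another, cyp46a1.3, fell at a low level (1.56 and 1.75 against 6.36 and 11.1), and fmo5, gstr and adh5 fell on the deposited scale only. The carboxylesterase ces2a (282 and 388 against 147 and 175) and cyp2k19 rose after TMM scaling only, and M+D- held 352 and 289.8 CPM of ces2a. Falls numbered 0 and 0 without M-D- library 1 and 2, 1 and 1 without M+D-, 12 and 12 without M-D+ and 0 and 2 without M+D+.

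Hormone-related enzymes and receptors were lower where called. The gene hsd11b2, which inactivates cortisol, was at 0.78 and 3.14 CPM in M+D+ against 37.5 and 44 in M-D- (-3.94 ± 0.84, limma adjusted p = 0.0369), with 203 and 70.1 in M+D- beside 35.7 and 202 in M-D+. The retinol dehydrogenase rdh10a (8.44 and 7.68 CPM against 33.2 and 32.5) fell on both scales and dhrs1 on the deposited scale. This made 3 falls (12%, against 6.12% of all rows) and no rise in 25 rows of steroid, thyroid and retinoid enzymes. After TMM scaling 2 of them fell (8%, against 3.65%). Both tumour libraries lay below both wild-type libraries in 14 of the 25 and above in 3 (43.8% and 18.7% of all rows). A growth hormone receptor, ghrb, fell to 7.03 and 13.6 from 47 and 63.8 CPM (-2.36 ± 0.45). It was the 1 call in 12 rows of the insulin-like growth factor axis (8.33%, against 6.12% of all rows that fell). Of 17 liver transcription factor rows creb3l3l (12.8 and 16.4 against 47.9 and 42.5) fell on both scales and foxa3 (7.34 and 6.98 against 21.4 and 16.3) on the deposited scale. Falls were 11.8% of this list on the deposited scale (6.12% of all rows) and 5.88% after TMM scaling (3.65%). In 6 of the 17 both tumour libraries lay above both wild-type libraries and in 7 below (18.7% and 43.8% of all rows). The 34 rows found took 0.105 and 0.131% of tags in M+D+ against 0.0783 and 0.083% in M-D-. The estrogen receptor esr1, at 0.47 and 20.6 CPM in M+D+ against 12.3 and 23.9 in M-D-, was not called, and ctsd was at 134 and 286 against 125 and 161. Among 10 rows of iron storage and heme 1 rose (10%, against 1.87% of all rows). This row, the iron exporter slc40a1, was at 43.6 and 47.5 CPM against 10 and 17.4 (1.71 ± 0.33). None of these genes passed without M+D+ library 1 or either M-D- library, without M+D+ library 2 ghrb alone did (0.0408), and without M+D- library 1 or 2 rdh10a alone did (0.0456 and 0.0468, all by limma).

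Protein folding and turnover showed scattered falls on the deposited scale, with 2 rises among chaperones. Of 54 rows of the endoplasmic reticulum 4 fell (7.41%, near the 6.12% of all rows) and 31 lay below both wild-type libraries (43.8% of all rows did). The disulfide isomerase p4hb, at 25.8 and 58.3 CPM against 155 and 317, was the 1 fall left after TMM scaling, the others being tmed2, spcs1 and copb2. The collagen hydroxylase subunit p4ha3, outside the lists, was at 1.88 and 12.6 CPM in M+D+ against 90.6 and 77.2 in M-D- (-3.76 ± 0.84, limma adjusted p = 0.0409). Of 39 chaperone rows 2 rose (5.13%, against 1.87% of all rows), the chaperonin subunits cct2 (11.4 and 16.4 against 1.82 and 4.12) and cct8 (28 and 42.2 against 10.9 and 9.11). In the same list 5 fell (12.8%, against 6.12%), among them the prolyl isomerases fkbp3 (9.38 and 10.8 against 100.4 and 55.5, -2.77 ± 0.53) and fkbp5, and the DnaJ protein dnaja2a. After TMM scaling 4 of the 39 rose (10.3%, against 4.34% of all rows) and 3 fell (7.69%, against 3.65%). The proteasome list had 2 falls in 33 rows (6.06%, psmd7 and psmc1b) and the ubiquitin list 3 in 34 (8.82%, ube2g1a, ube2v1 and ube2g1b), and neither had a call after TMM scaling. Of 53 splicing rows srsf1a and lsm7 fell (3.77%, against 6.12% of all rows), lsm7 on the deposited scale only. These lists lost all calls when M+D+ library 1 was omitted, and with M+D+ library 2 omitted the endoplasmic reticulum and chaperone lists had 1 fall each. They had none without M-D- library 1 or 2, and without M+D- library 1 or 2 fkbp3 alone passed (limma adjusted p = 0.0416 and 0.0416).

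Few transporter and lysosomal genes were called. The mitochondrial carrier slc25a48 was at 38.3 and 62.1 CPM in M+D+ against 954 and 883 in M-D- (-4.21 ± 0.76, limma adjusted p = 0.0243), and M-D+ held 242 and 1438. Of 64 solute carrier rows 4 fell (6.25%, near the 6.12% of all rows), with slc25a20, slc67a1 and, on the deposited scale only, slc12a4 beside it, and 2 rose (3.12%, against 1.87%), slc40a1 and the glutathione carrier slc25a39 (189 and 172.5 CPM against 54.8 and 56.8). Of 33 lysosome and autophagy rows 2 rose (6.06%, against 1.87% of all rows), the cholesterol-binding npc2.1 (60.8 and 68.8 against 17 and 26.9) and the granulin gene grna (14.5 and 23 against 4.09 and 5.42), and in both the M-D+ values, 63.6 and 53.9 and 17.2 and 31.7, overlapped the tumours. Among 30 cytoskeleton rows pfn2a and tuba8l4 fell on the deposited scale (6.67%, near the 6.12% of all rows). Leaving out M+D+ library 1, either M-D- library or either M+D- library ended all of these calls, and without M+D+ library 2 the solute carriers had 2 falls.

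**Figure D5:**
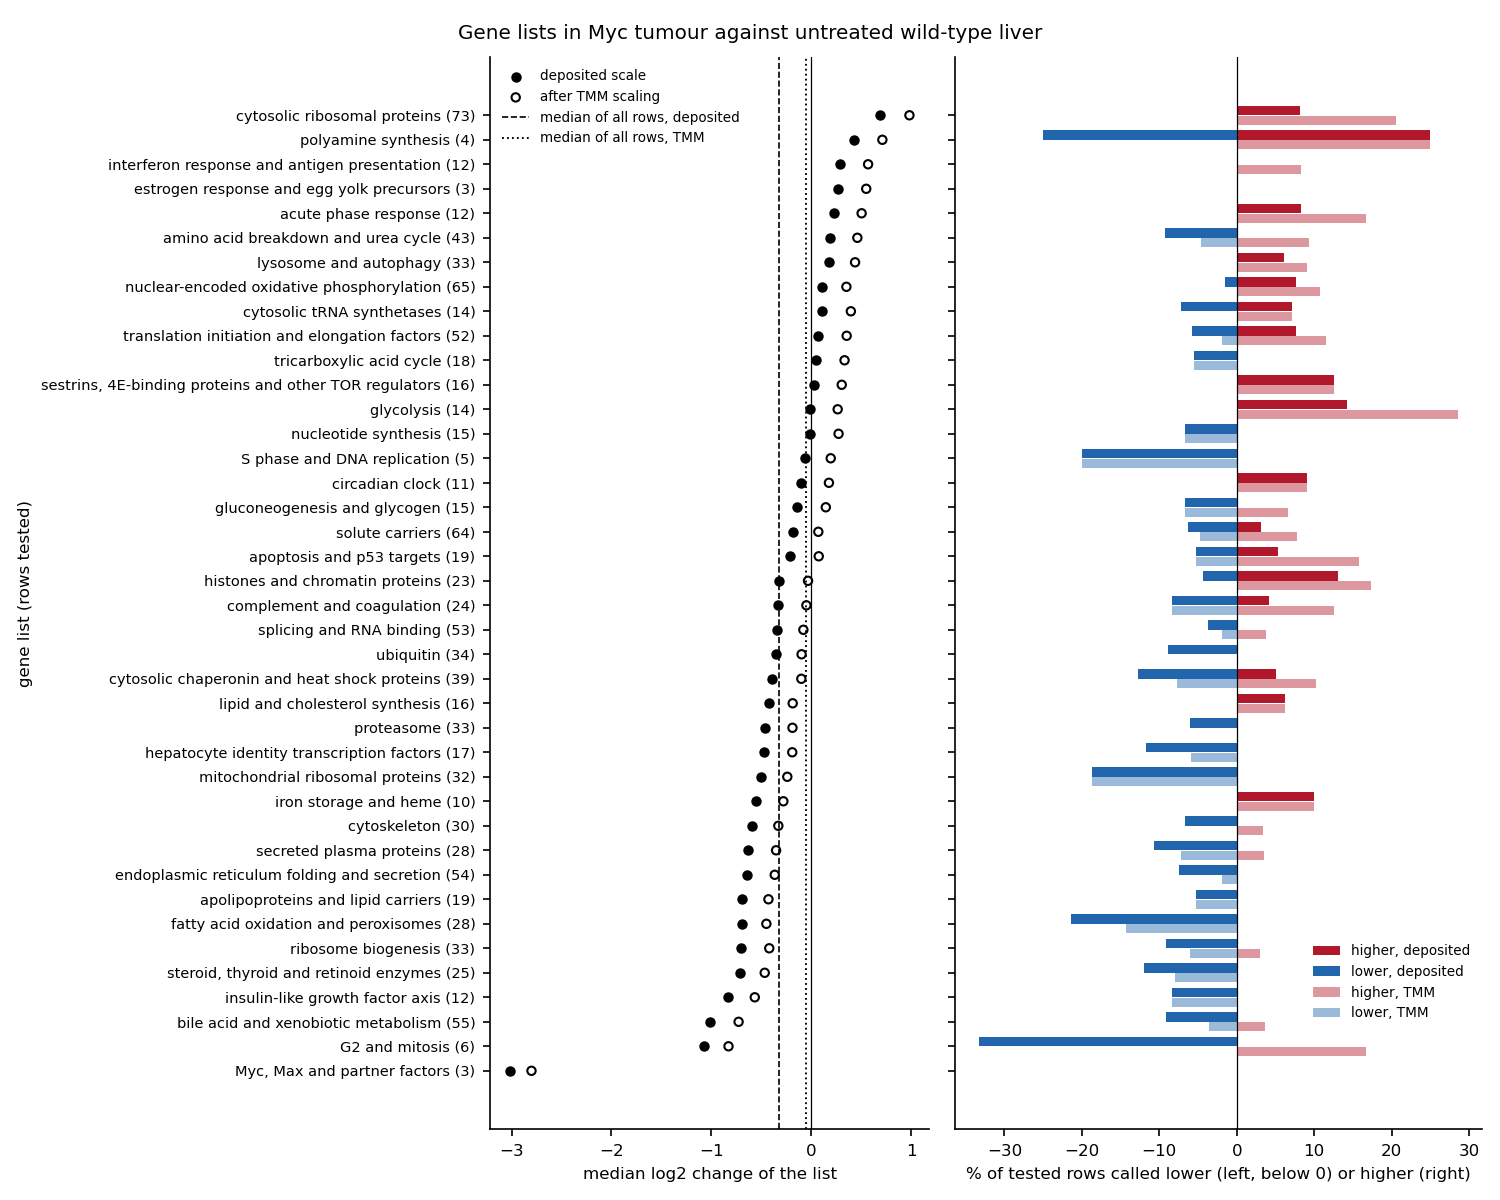
Left, median log2 change of each pathway list with at least 3 tested rows in M+D+ against M-D- (x axis), on the deposited scale (filled) and after TMM scaling (open), with the medians of all rows as vertical lines; right, the percent of its rows called lower or higher (bars left and right of 0). Cytosolic ribosomal proteins have the highest median, 0.69 on the deposited scale, and the largest share of falls among lists with over 20 tested rows is that of fatty acid oxidation, 21.4%.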

How the data were processed

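RNA from zebrafish liver was counted by 3' RNA-SAGE on SOLiD, with 2 libraries for each of 4 groups, per the labels. The deposited values are CPM, tag counts scaled to the library's sum, of transcript rows keyed by GI number, computed by the authors per library. No aligner, genome build or rule for assigning tags is given in the sources used here. All 8 libraries' CPM values were whole multiples of 1 step (100% within 0.1 tag), which gave the total tags. The files were joined on GI number with absent rows at 0, and names came from the deposited RefSeq accessions matched to a table of gene names and RefSeq genes, so that 10410 of 15600 rows had a symbol. Rows without an accession, 122 in number, held 1.25 to 4.72% of tags.

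Of the rows with at least 5 CPM in 2 of the 4 libraries, log2(CPM + 1) was fitted with limma 3.58.1 (R 4.3.3; intensity trend, 4 group means over 8 libraries, 4 residual degrees of freedom), with Benjamini-Hochberg adjustment over 3642 rows and a threshold of 0.05. The fit was repeated after TMM scaling (edgeR 4.0.16). The count tests of edgeR and DESeq2 1.42.0 on recovered tags, other scalings, pseudocounts of 0.5 and 5, other filters, fewer libraries and a replicate block were alternatives. The limma fit on the deposited scale was checked on simulated data, and the other tests were not. Apart from the rows changed on purpose, the simulation gave all libraries the same mean levels and all rows the same dispersion. It therefore does not bear on the loss of calls when single libraries are left out. Replicates of a group differed by more than counting noise (chi-square per degree of freedom at least 33.3), so none was merged. Deviations of same-numbered libraries had r = -0.04 over rows for M-D- and M+D+. Over the other pairs of groups r ran from -0.34 (M-D+ and M+D+) to 0.06 (M+D- and M+D+). The numbers were not used for pairing.

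The 41 pathway lists and 13 marker lists were symbol patterns. The comparison, lists and tests were chosen with earlier results of these data known. Genes are named by a rule: the 15 largest rises and falls described in the text, up to 3 called members per list and direction with the smallest p, and the endogenous Myc, fabp10a and krt4 genes. Other named genes, among them those called after TMM scaling only, were chosen after their values were seen. A few results are not reported here.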

Additional observations from a re-analysis of the deposited data

How the results depend on the processing

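The direction of the 30 named rises and falls was kept in every alternative, which their selection by size from these same data largely fixed in advance. The number of calls was not stable. From 291 rows on the deposited scale, the count fell to 102 without a filter on low values and to 65 with the 4 libraries alone, and was 478 with DESeq2. From 291 rows after TMM scaling it fell to 157 and 162 under the first of these 2 settings and the second. Leaving out 1 library gave 0 to 516 rows on the deposited scale and 0 to 474 after TMM scaling, the lowest without M-D- library 1 (0 and 0) and M-D- library 2 (0 and 7) and the highest without M-D+ library 1. With the replicate block the counts were 93 and 120, although the labels' numbers do not pair the libraries. Without both M-D+ libraries, an alternative chosen after seeing the data, they were 492 and 461. For calls summed over the pathway lists, 102 on the deposited scale and 110 after TMM scaling, the counts were 41 and 64 without the filter, 0 to 179 and 0 to 188 with 1 library left out, 38 and 51 with the replicate block and 172 and 181 without both M-D+ libraries. On the deposited scale they were also 30 with the 4 libraries alone and 173 with DESeq2. Other scalings, pseudocounts, a filter at 20 CPM, robust variance, no trend and edgeR moved the total counts by less than 1.5 times. In all of these the causes were not tested. The split by direction did change with the scaling. It was 68 higher and 223 lower on the deposited scale and 158 and 133 with TMM. With median-ratio factors it was 175 and 122, and with upper-quartile factors 174 and 127. Of the calls, 76.6% were lower on the deposited scale and 45.7% after TMM scaling. The sign turned in 3 genes with no call: esr1, ctsd and fabp10a. With M+D+ library 1 or 2 left out, the log2 change of esr1 ran from -3.63 to 0.25 on the deposited scale and from -3.56 to 0.44 after TMM scaling, and that of ctsd from -0.085 to 1.001 on the deposited scale. For fabp10a the deposited change turned to 0.26 with TMM, 0.30 with median-ratio and 0.29 with upper-quartile factors and ran from -0.30 to 0.23 with 1 library left out, and the TMM change turned to -0.033 without scaling and ran from -0.10 to 0.62. Depth limits rows near the 3-tag floor, most of all in M-D+ library 1.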

Other observations

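The largest fall among all tested rows was in a row without a gene symbol, chosen after its values were seen. The tumour libraries held 2.19 and 46.8 CPM of it against 3554 and 1948 in M-D- (log2 change -7.74, limma adjusted p = 0.0271), and edgeR with TMM factors did not call it (adjusted p = 0.0589).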
